A study of Mus musculus with 9 samples.

Results

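Cartilage matrix and growth plate signal genes were followed in orofacial tissue of mouse embryos, from which the face and palate form. The group was set by name: the matrix genes Acan, Hapln1, Matn1, Epyc and Cnmd, the signal Ihh and the receptor gene Pth1r. A gene was represented by probe sets that the array annotation assigns to that 1 symbol. This gave 1 probe set each for 6 of the 7 genes, against 8251 genes and 12488 probe sets in all, and Cnmd was not analysed here. Total RNA was hybridized to 9 one-colour oligonucleotide arrays, 3 each at gestation day (GD) 12, 13 and 14. The labels used here give no strain, genotype or treatment, and leave unstated whether replicate arrays stand for different litters, animals or pools. The p-values therefore measure only the spread between these samples, which may be technical, and 3 arrays per day limit the precision.

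Cartilage resists compression because aggrecan, a large proteoglycan encoded by Acan, is trapped on hyaluronan within a collagen II, IX and XI network. In growth cartilage, chondrocytes that leave the dividing pool release Indian hedgehog (Ihh). Ihh maintains parathyroid hormone-related protein (PTHrP, gene Pthlh), which acts through the receptor Pth1r to delay further maturation. In the face, cartilage arises from cranial neural crest, while much of the facial bone forms directly in mesenchyme without a cartilage model.

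Values are the deposited intensities, a linear brightness already scaled between arrays by the authors. Array medians ran from 47.15 to 56.95. Differences were tested in limma on log2(intensity + 3), over the 9316 probe sets whose mean lay above an intensity of 10.4, and a fold derived from this scale understates changes of dim probe sets. A call is a Benjamini-Hochberg adjusted p under 0.05. On every day, the third array had a lower ratio of 3 prime to 5 prime control signal than the first and second. The actin ratio was 1.25 to 1.42 on the third arrays and 1.54 to 2.44 on the others, and the Gapdh ratio 0.802 to 0.851 against 1.09 to 1.29.

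Ihh rose over these days, and it was the one tested gene of the group whose rise passed the test. Its intensity averaged 26.0 ± 5.35 (SD, n = 3) at GD12 and 61.5 ± 2.40 (n = 3) at GD14. Acan and Matn1 had larger log2 differences, but their arrays of 1 day differed widely among themselves and neither passed. Hapln1 and Pth1r showed smaller differences that did not pass, and Epyc was too dim to be tested. In the comparison of GD14 with GD12, 1 of the 5 tested probe sets was called higher and 0 lower, where 3.24% of all tested probe sets were called higher, 1.06% lower and 4.3% in either direction.

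**Figure D1:**
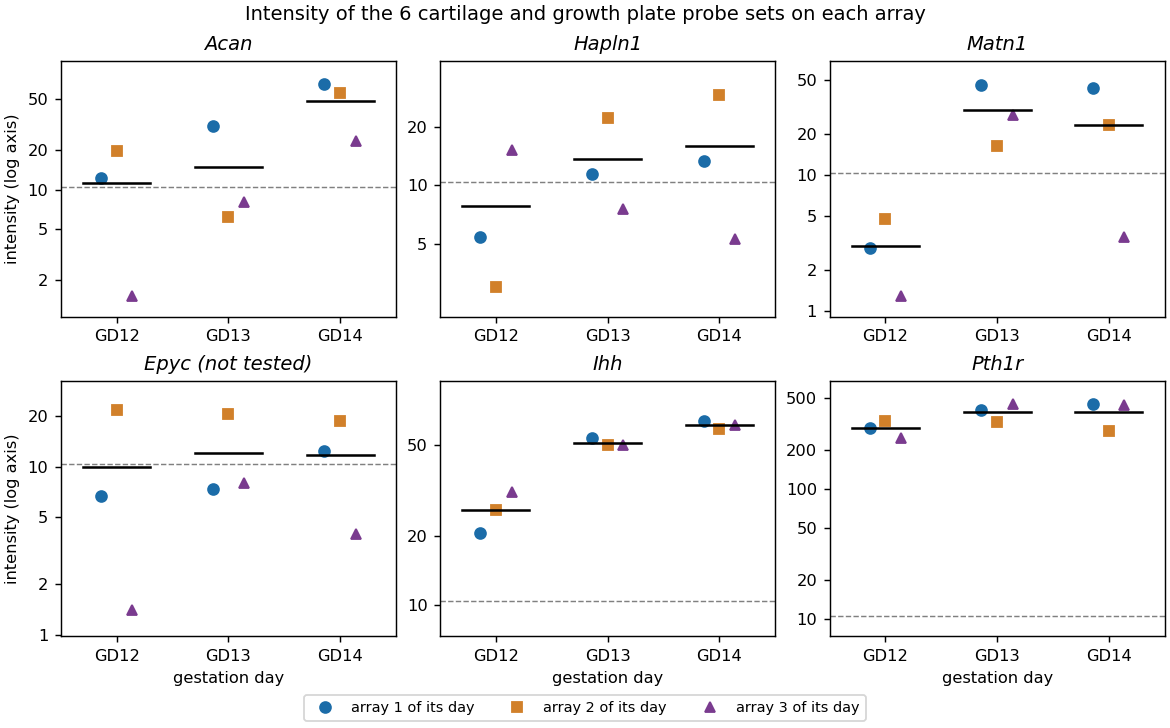
Intensity (log axis) of the 6 probe sets on each of the 9 arrays by gestation day, with symbols for the array number within its day, a bar for the mean of the day and a dashed line at the filter intensity of 10.4. Ihh separates all 3 days with little spread, while Acan, Hapln1, Matn1 and Epyc scatter around the dashed line.

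Ihh encodes the hedgehog ligand that prehypertrophic chondrocytes secrete. The window from 250 bases before to 50 bases after its annotated start, in RefSeq on GRCm38.p6, is chr1:74951623-74951922 on the minus strand. It is shown because Ihh carried the call, with the Acan and Matn1 windows further on for comparison. Capitals mark matches to the GC box GGGCGG, the SOX motif AACAAT or the GLI core CACCCA, read on either strand.
Ihh: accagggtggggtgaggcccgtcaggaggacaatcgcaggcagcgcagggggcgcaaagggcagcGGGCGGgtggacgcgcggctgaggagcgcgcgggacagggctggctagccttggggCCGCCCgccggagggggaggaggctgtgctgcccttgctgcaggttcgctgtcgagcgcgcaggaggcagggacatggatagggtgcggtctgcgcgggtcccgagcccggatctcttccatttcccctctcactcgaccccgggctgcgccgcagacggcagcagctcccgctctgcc
The window was rich in G and C, at 72.7%, against a median of 52.7% over 32851 promoter windows of the same length, and held 30 CpG pairs where the median was 7. A GC box stood 185 bases before the start on the gene's own strand, and another 129 bases before it on the opposite strand. This motif occurs in 35.7% of all windows. The palindromic cyclic AMP element TGACGTCA, present in 1.79% of windows, the TATA box TATAAA, in 13.6%, the SOX motif, in 10.7%, and the GLI core, in 22.2%, had no match there. A match describes letters in the window and is no evidence of binding.

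At GD12 the 3 arrays gave Ihh intensities of 20.7, 26.0 and 31.4. At GD13 they gave 53.7, 50.1 and 50.2, and at GD14 63.9, 59.1 and 61.4. Every GD13 array lay above every GD12 array, and every GD14 array above every GD13 array. Such separation occurred upward in 10.1% of tested probe sets from GD12 to GD13, in 7.13% from GD13 to GD14 and in 12.1% from GD12 to GD14. Downward it occurred in 8.39%, 5.88% and 10.3% over the same comparisons. No Ihh value lay under the filter intensity.

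From GD12 to GD14, Ihh rose by 1.17 on the log2 scale (SE 0.17, 95% interval 0.79 to 1.54, limma adjusted p = 0.00566). This is a 2.25-fold rise, with an interval of 1.73 to 2.91. Of all tested probe sets, 2.91% had a log2 difference at least as high. Over the 3 days together, the moderated F-test gave Ihh an adjusted p of 0.0148 and rank 97 of 9316, with 2.59% of probe sets called.

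Most of the measured Ihh difference lay in the step from GD12 to GD13. That step was 0.92 on the log2 scale (SE 0.17, 95% interval 0.55 to 1.29), and its limma adjusted p of 0.0542 missed the threshold. With array weights in the fit it was 1.05 with an adjusted p of 0.012, and without the third GD12 array 1.05 with 0.0439. In the other 18 of 20 alternatives it missed the threshold, with an adjusted p of up to 0.228, without the first GD13 array. The step from GD13 to GD14 was 0.25 (SE 0.17, 95% interval -0.13 to 0.62, adjusted p = 0.865). The difference between the steps, second minus first, was -0.67 (unadjusted p = 0.0434, adjusted p = 0.957 in limma), so a slowing was not called.

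Over the tested genes of the group, 0 of 5 passed from GD12 to GD13, where 0.644% of all tested probe sets did (0.569% higher and 0.0751% lower). In that step 2 (Matn1 and Ihh) had an unadjusted limma p under 0.05. So did 782 of all 6861 genes tested, each by its brightest tested probe set. From GD13 to GD14 again 0 of 5 passed, against 0.0429% of all (0.0322% higher and 0.0107% lower). Acan alone of the 5 had an unadjusted limma p under 0.05, as did 509 of the 6861 genes. The test of unequal steps called 0 of 5 and 0% of all tested probe sets, with 2 of the 5, Ihh and Matn1, and 4.86% of all under an unadjusted p of 0.05.

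Pth1r encodes the receptor through which PTHrP holds chondrocytes in division, and is also expressed by cells of the bone lineage. Its GD12 intensities were 297.7, 333.7 and 249.2, with a mean of 294 ± 42.4 (n = 3). At GD13 they were 403.3, 327.3 and 454.9 (395 ± 64.2), and at GD14 451.0, 280.0 and 446.3 (392.4 ± 97.4). The days overlapped in every comparison: the second array was the highest at GD12 but the lowest at GD13 and at GD14.

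The Pth1r difference from GD12 to GD14 was 0.39 on the log2 scale (SE 0.23, 95% interval -0.13 to 0.92, limma adjusted p = 0.436). From GD12 to GD13 it was 0.42 (95% interval -0.10 to 0.95, adjusted p = 0.562), and from GD13 to GD14 -0.03 (95% interval -0.55 to 0.49, adjusted p = 0.993). The intervals leave room for a rise of up to 0.92 from GD12 to GD14 and for a small fall. The spread of the arrays around their day means was 0.29 on the log2 scale for Pth1r and 0.16 for Ihh, where the median over all tested probe sets was 0.293.

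Acan encodes the aggrecan core protein, which carries the sulfated chains that hold water in cartilage. Its GD12 intensities were 12.2, 19.7 and 1.5 (11.1 ± 9.15, n = 3). Those of GD13 were 30.6, 6.1 and 8.0 (14.9 ± 13.6), and those of GD14 65.1, 55.2 and 23.7 (48.0 ± 21.6). All GD14 arrays lay above all GD12 arrays, while GD13 overlapped both. The lowest GD12 and GD14 values came from the third arrays, and 1 GD12 and 2 GD13 values were under the filter intensity, so no fold is given.

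From GD12 to GD14 the Acan difference was 2.03 on the log2 scale (SE 0.69, 95% interval 0.47 to 3.59). Only 0.784% of tested probe sets had one at least as high, yet the limma adjusted p was 0.162. The arrays of a day varied by 1.01 on the log2 scale, more than in 98.6% of tested probe sets. Part of that spread was shared by arrays of the same number. A limma fit that paired arrays by number gave the same difference an SE of 0.49 and an adjusted p of 0.059, still above the threshold. The step from GD13 to GD14 was 1.66 (95% interval 0.10 to 3.22, adjusted p = 0.678) and that from GD12 to GD13 0.37 (95% interval -1.19 to 1.93, adjusted p = 0.90). The first step changed sign without the third GD12 array (-0.31) or the first GD13 array (-0.21).

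Hapln1 encodes the link protein that locks aggrecan onto hyaluronan. Its intensities were 5.4, 3.0 and 15.1 at GD12 (7.83 ± 6.41, n = 3), 11.4, 22.2 and 7.5 at GD13 (13.7 ± 7.62), and 13.4, 29.1 and 5.3 at GD14 (15.9 ± 12.1). The days overlapped throughout, and 4 of the 9 values were under the filter intensity. The third array was the highest at GD12 and the lowest at GD13 and GD14.

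The Hapln1 difference from GD12 to GD14 was 0.75 on the log2 scale (SE 0.57, 95% interval -0.53 to 2.04, limma adjusted p = 0.564). Its 2 daily steps were 0.69 (95% interval -0.60 to 1.97, adjusted p = 0.724) and 0.07 (95% interval -1.22 to 1.35, adjusted p = 0.993). With these intervals, neither a rise nor a fall of moderate size could be told from no change.

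Matn1 encodes matrilin-1, an adaptor that joins collagen fibrils and aggrecan. At GD12 its intensities were 2.9, 4.8 and 1.3 (3.0 ± 1.75, n = 3), all under the filter intensity. They were 46.3, 16.5 and 27.7 at GD13 (30.2 ± 15.05), and 43.8, 23.3 and 3.5 at GD14 (23.5 ± 20.2). All GD13 arrays were above all GD12 arrays, while at GD14 the third array fell back among the GD12 values and the other two stayed above them.

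From GD12 to GD13 the Matn1 difference was 2.41 on the log2 scale (SE 0.66, 95% interval 0.91 to 3.90). This was among the highest 0.0859% of differences in that step, with an unadjusted limma p of 0.00544 and an adjusted p of 0.195. With all 3 GD12 values under the filter intensity, Matn1 passed the filter through its GD13 and GD14 values, which favours a rise from GD12. Its rank and p-values among the tested probe sets are therefore no independent evidence of one. From GD12 to GD14 it was 1.78 (SE 0.66, 95% interval 0.28 to 3.27, adjusted p = 0.198). That comparison depended on single arrays: without the third GD14 array the difference was 2.59 and passed, with an adjusted p of 0.0211. Without the first GD13 array or the first GD14 array, Matn1 did not pass the filter and was not tested. The step from GD13 to GD14, -0.63 (95% interval -2.12 to 0.87, adjusted p = 0.926), turned to 0.18 without the same array.

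**Figure D2:**
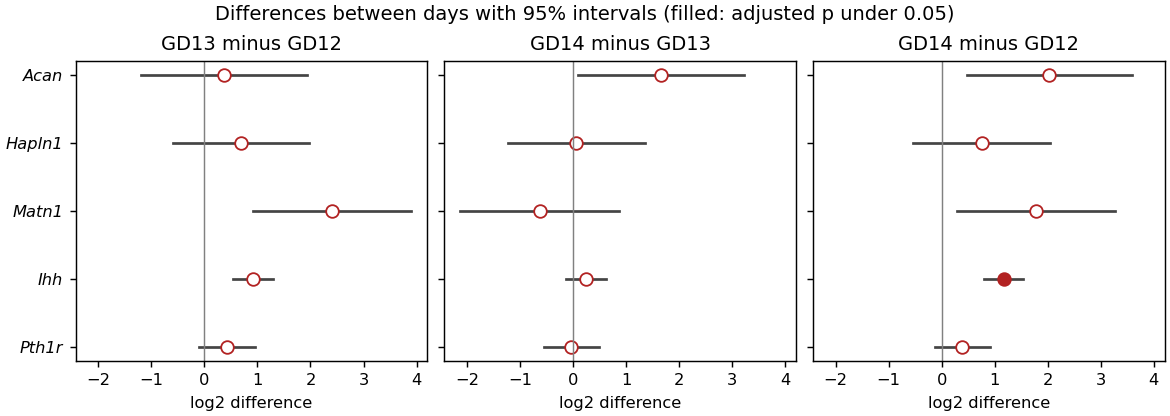
Log2 differences of the 5 tested probe sets in the 3 comparisons of days, as points with 95% intervals from limma (filled where the adjusted p is under 0.05). The single filled point is Ihh from GD12 to GD14 at 1.17, and the intervals of Acan, Matn1 and Hapln1 are several times as wide as that of Ihh.

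Epyc encodes epiphycan, a small leucine-rich proteoglycan of the growth plate. Its intensities were 6.7, 21.7 and 1.4 at GD12 (9.93 ± 10.5, n = 3), 7.4, 20.7 and 8.0 at GD13 (12.0 ± 7.51), and 12.4, 18.9 and 4.0 at GD14 (11.8 ± 7.47). The second array was the highest on every day and 5 of 9 values were under the filter intensity. Its mean on the log2 scale did not pass the filter and it was not tested. The array numbers recurred across the group: of 18 sets of 3 values, 1 per gene and day, the third array was the lowest in 9, the second in 7 and the first in 2. The part of RNA quality in these values was not tested beyond the fits with the actin ratio and without the third arrays.

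The Acan and Matn1 windows, printed because these 2 matrix genes had arrays that separated days, differed from each other in composition. The Acan window is chr7:79052976-79053275 and the Matn1 window chr4:130944135-130944434, both on the plus strand of GRCm38.p6 in RefSeq.
Acan: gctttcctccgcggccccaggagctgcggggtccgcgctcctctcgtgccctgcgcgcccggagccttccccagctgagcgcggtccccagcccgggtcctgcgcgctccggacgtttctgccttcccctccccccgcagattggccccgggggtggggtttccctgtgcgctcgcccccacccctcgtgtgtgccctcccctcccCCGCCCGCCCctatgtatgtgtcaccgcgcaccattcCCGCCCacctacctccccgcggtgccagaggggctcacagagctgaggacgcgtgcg
Matn1: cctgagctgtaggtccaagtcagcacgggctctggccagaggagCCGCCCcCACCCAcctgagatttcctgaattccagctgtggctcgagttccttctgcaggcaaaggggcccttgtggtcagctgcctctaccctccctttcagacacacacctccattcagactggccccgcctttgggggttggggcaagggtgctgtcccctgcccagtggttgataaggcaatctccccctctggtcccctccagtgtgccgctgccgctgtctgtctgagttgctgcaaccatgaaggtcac
The Acan window had 74.0% G and C and 31 CpG pairs, close to the Ihh window, and the Matn1 window 61.3% and 6. Acan held 3 GC boxes on the opposite strand, of which those at 44 and 40 bases before the start overlap. Matn1 held 1 GC box at 206 bases before the start and a GLI core at 199 bases before it. Hapln1 had a GLI core 172 bases before its start and 54.3% G and C. The Epyc windows, at 40.3% and 32.3%, held 2 and 3 SOX motifs on the opposite strand.

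The 5 genes with the pattern most like that of Ihh were found by the root mean square difference of log2 values, each centred on its own mean over the 9 arrays. Fah, which encodes the last enzyme of tyrosine breakdown, was nearest at 0.0951. The median over the 8379 probe sets compared was 0.606. Next came Smoc2, a secreted calcium-binding matrix protein, at 0.126, Ahr, the aryl hydrocarbon receptor, at 0.151, Tagln2, an actin-binding protein, at 0.154, and Emid1, a matrix protein, at 0.156.

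Each of these 5 genes rose from GD12 to GD14, a direction that the choice by likeness to Ihh fixes. Fah averaged 41.7 ± 10.7 (n = 3) at GD12 and 104.6 ± 8.09 at GD14, and Smoc2 166.6 ± 26.9 and 361.8 ± 24.0. As in Ihh, the GD12 arrays of Fah were 31.0, 41.8 and 52.3, lowest on the first and highest on the third. The choice by likeness favours such an order too. Tagln2 shared it, while Smoc2, Ahr and Emid1 were highest on the second GD12 array. Without the third array of each day, an alternative chosen after seeing the data, Ahr, Emid1 and Smoc2 missed the threshold, with limma adjusted p of 0.0769, 0.0663 and 0.0636. Ahr also missed it without the first GD12 array (0.0514), the first GD14 array (0.0716) or the second (0.0586), and with the compared days alone (0.0622). The likeness is a description over 9 arrays that share day and array number.

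**Figure D3:**
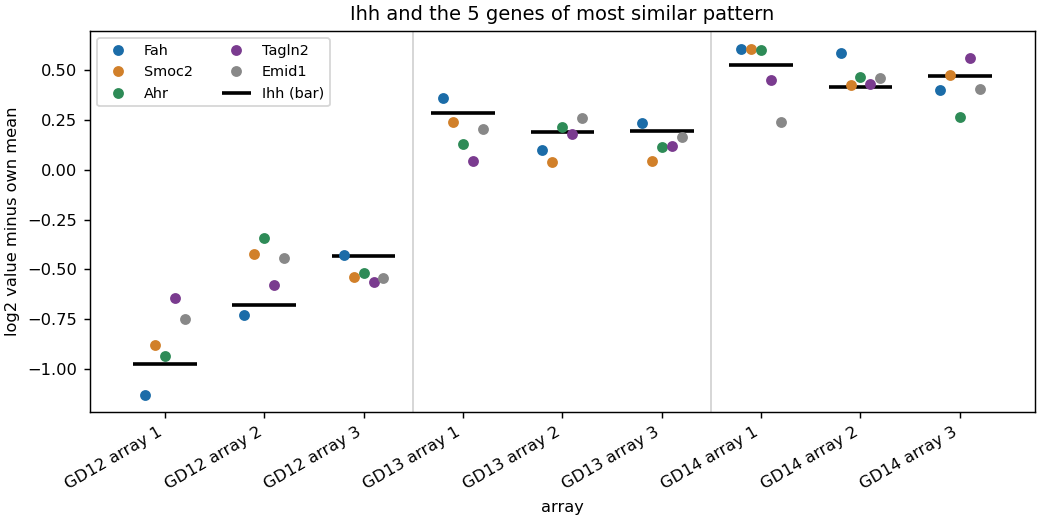
Log2(intensity + 3) minus its own mean over the 9 arrays, for Ihh (black bars) and the 5 genes nearest to it (coloured points), array by array with the days divided by grey lines. All 6 are below their mean on every GD12 array and above it on every GD13 and GD14 array.

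The remaining genes of cartilage and the growth plate were described by lists chosen by function, each gene by its brightest tested probe set. Over all 6861 genes tested, 248 rose and 67 fell from GD12 to GD14, with a median log2 difference of -0.006. The 5 tested genes studied here had a median of 1.17, which is the value of Ihh itself, the only one of them that passed.

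Among cartilage collagens, 2 of 6 tested genes rose and 0 fell, with a median of 0.27. Col11a1, a chain of the thin collagen XI fibrils, went from 331.9, 300.4 and 255.3 at GD12 to 889.2, 886.1 and 653.8 at GD14, a difference of 1.44 (SE 0.18, limma adjusted p = 0.00316). Col11a2, its partner chain, went from 30.3, 13.0 and 5.6 to 137.3, 144.7 and 73.2, a difference of 2.81 (SE 0.47, adjusted p = 0.0123). Neither overlapped between the days. Without the first or the second GD14 array, Col11a2 had an adjusted p of 0.0596 or 0.052.

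The collagen IX chains did not pass: Col9a1 averaged 238.3 at GD12 and 141.3 at GD14 (log2 difference -0.77, adjusted p = 0.0848). Col9a2 averaged 166.5 and 257.5 (0.60, adjusted p = 0.178), and Col9a3 190.0 on both days (-0.06, adjusted p = 0.952). Col10a1, the collagen of hypertrophic cartilage, averaged 20.4 and 11.5 (-0.66, adjusted p = 0.349). Col2a1, the main cartilage collagen, was at 12.6 on the third GD12 array and at 2.5 to 10.3 on the other 8, and was not tested. These values are of 1 probe set, and its brightness gives no level of Col2a1 against other genes.

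Of the other cartilage matrix proteins, 2 of 7 tested genes rose and 0 fell, with a median of 0.27. Mgp, matrix Gla protein, an inhibitor of mineral deposition, averaged 94.1 ± 19.3 (n = 3) at GD12 and 250.5 ± 60.2 at GD14 (1.38, limma adjusted p = 0.0235). Matn2, a relative of Matn1 that is found outside cartilage too, averaged 54.1 ± 18.0 and 137.8 ± 33.0 (1.32, adjusted p = 0.0294). Its second probe set had a difference of 1.24 and did not pass (adjusted p = 0.237). Both calls were lost when single arrays were left out, with an adjusted p of up to 0.0866 for Mgp and 0.104 for Matn2 without the first GD14 array. For Mgp this held for each GD12 array and the first and second of GD14, and for Matn2 for the first array and the third array of GD12 and the first and second of GD14. Matn2 also missed the threshold without the third arrays (0.0942), with the actin ratio as a covariate (0.0623) and with the compared days alone (0.0765).

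Among genes that turn aggrecan over, 1 of 6 tested rose and 0 fell, with a median of 0.37. That gene was Mmp13, the collagenase of late hypertrophic cartilage and of bone. Its intensities were 1.2, 9.8 and 7.0 at GD12, all under the filter intensity, 46.8, 60.9 and 23.4 at GD13, and 132.9, 113.7 and 62.9 at GD14. The 3 days did not overlap, and the difference from GD12 to GD14 was 3.64 (SE 0.48, limma adjusted p = 0.00421).

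Among enzymes and transporters of glycosaminoglycan synthesis and sulfation, 1 of 13 tested genes rose and 0 fell, with a median of 0.03, or -0.01 after median scaling. Chpf, which helps to polymerize chondroitin, averaged 105.9 ± 21.8 (n = 3) at GD12 and 202.7 ± 7.55 at GD14 (0.94, limma adjusted p = 0.0236). It did not pass without the third array of each day (adjusted p = 0.102), nor without any single array of GD12 or GD14 other than the second of GD12 (up to 0.0888), nor with the compared days alone (0.0647). Without the third arrays Bpnt2, a phosphatase of the sulfation pathway, was called lower (adjusted p = 0.0474, against 0.468). Its second probe set had a difference of -0.05 over all arrays and did not pass (adjusted p = 0.90). With the actin covariate Has1, a hyaluronan synthase, was called higher (0.0231, against 0.321). For Has1, 2 GD12, 2 GD13 and 1 GD14 values were under the filter intensity.

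Structural relatives of the matrix genes had 2 of 8 tested genes higher and 0 lower, Matn2 again and Ogn, with a median of 0.09. Ogn, which encodes osteoglycin, a leucine-rich proteoglycan of the same class as epiphycan, had intensities of 205.9, 229.0 and 219.5 at GD12. They were 488.9, 450.0 and 442.6 at GD13, and 830.1, 736.7 and 875.9 at GD14. Its difference from GD12 to GD14 was 1.88 (limma adjusted p = 0.000231), and that from GD12 to GD13 1.07 (adjusted p = 0.0124). Its second probe set rose by 1.55 from GD12 to GD14 (adjusted p = 0.00669).

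Among chondrocyte transcription factors only 2 of 13 listed genes could be tested. Mef2c, which drives hypertrophy and also acts in muscle and endothelium, rose from 28.4 ± 4.58 (n = 3) to 75.0 ± 26.5 (1.26, limma adjusted p = 0.0336). Its 3 other probe sets had differences of 0.20, 0.83 and 1.16 and none passed, with adjusted p of 0.835, 0.294 and 0.503. The call was lost without any single array other than the third of GD14 (adjusted p of up to 0.128, without the first of GD14), and with no filter (0.0544), the actin ratio as a covariate (0.0528) or the compared days alone (0.0993). Sox6, a partner of Sox9, averaged 63.7 at GD12 and 39.5 at GD14 (-0.64, adjusted p = 0.053), and it was called lower with the replicate number as a block (0.0369) and after quantile normalization (0.0304). Sox9 itself was not analysed here.

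In the hedgehog and PTHrP loop around Ihh and Pth1r no gene was called from GD12 to GD14. Of 12 tested genes 0 passed in either direction, with a median of -0.10, which was 0.02 after quantile normalization. An unadjusted limma p under 0.05 was found for 2 of the 12, and for 1284 of all 6861 genes tested. Ptch1, the hedgehog receptor and a target of the pathway, had GD12 intensities of 335.2, 374.3 and 443.7 and GD14 intensities of 405.7, 431.0 and 332.2. Its difference was 0.02 (SE 0.17, adjusted p = 0.974), and its second probe set gave -0.44 (adjusted p = 0.60).

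Gli1, the target most often used as a readout of hedgehog signalling, had 115.9, 130.5 and 102.5 at GD12 and 110.2, 144.2 and 118.1 at GD14. Its difference was 0.09 (SE 0.18, limma adjusted p = 0.858). Gnas, the G protein subunit downstream of Pth1r, averaged 7233 at GD12 and 6378 at GD14 (-0.19, adjusted p = 0.676). Gas1, a hedgehog co-receptor, averaged 677 and 545 (-0.32, adjusted p = 0.436). GD12 and GD14 overlapped for Ptch1, Gli1, Gnas and Gas1. Pthlh was not analysed here.

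Of other growth plate signals, such as FGF, BMP, WNT and natriuretic peptide genes, 0 of 20 tested passed. An unadjusted limma p under 0.05 was found for 5 of them, and for 1284 of all 6861 genes tested. The median of the 20 was 0.01, or -0.02 after quantile normalization and -0.03 after median scaling. The brightest were Thra, the thyroid hormone receptor, at 672 and 914 (0.46, adjusted p = 0.197), and Igf1r, the receptor for insulin-like growth factor, at 463 and 252 (-0.92, adjusted p = 0.176). With the replicate number as a block, 1 of the 20 rose, Ccn2, at an adjusted p of 0.0487 in place of 0.21. Without the third arrays 1 of the 20 fell, Wnt5a, a secreted WNT ligand, at 0.0147 in place of 0.228 (log2 difference -1.39 over all arrays).

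**Figure D4:**
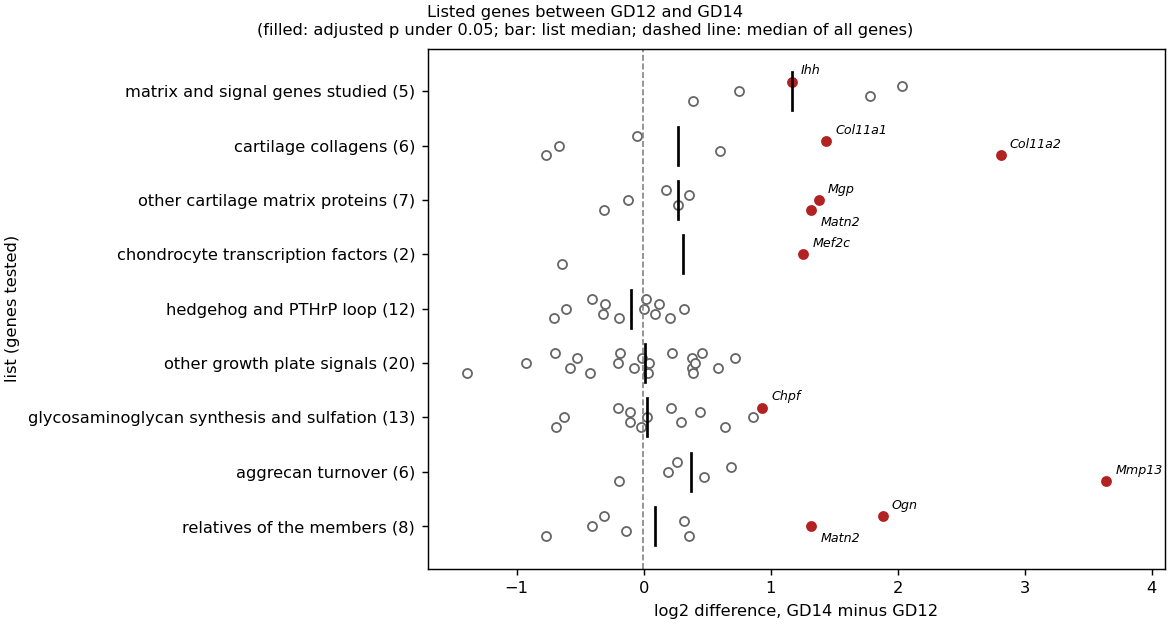
Log2 difference from GD12 to GD14 of each tested gene, by list (number tested in parentheses), with filled points at a limma adjusted p under 0.05, a bar at the list's median and a dashed line at the median of all genes. The called genes, from Chpf at 0.94 to Mmp13 at 3.64, all lie to the right, and the hedgehog and PTHrP loop and the other growth plate signals have none.

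RNA of whole tissue was measured, so more cells of a type and more RNA per cell cannot be told apart. Summed markers of several cell types also differed between GD12 and GD14. The summed intensity of 8 chondrocyte markers, which include Acan, Matn1 and Hapln1, was 543 to 620 at GD12 and 884 to 1340 at GD14, and 2 of 7 tested markers rose. These were Col11a1, with a mean of 295.9 at GD12 and 809.7 at GD14, and Col11a2, with 16.3 and 118.4. Most of the rise in the sum came from Col11a1. The log2 difference was positive in 6 of the 7, and Col9a1 went the other way, from 238.3 to 141.3. Of 3 hypertrophic markers, Ihh and Mmp13 rose and Col10a1 did not, with sums of 36.7 to 64.9 and 132.7 to 208.3. These sums include Ihh itself, so their rise is partly its own. Col10a1 averaged 20.4 at GD12 and 11.5 at GD14.

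Osteoblast markers had probe sets for 3 of 7 listed genes, and 3 of 3 rose by GD14. Their sums were 139.8 to 187.0 at GD12, 1229 to 1640 at GD13 and 2135 to 3440 at GD14. Most of the rise in these sums came from Ibsp, with a mean of 40.4 at GD12 and 2268 at GD14. Skeletal muscle markers went from 1060 to 1414 up to 2434 to 3734, with 5 of 7 higher, or 3 with the actin ratio as a covariate. Macrophage markers went from 196 to 256 up to 479 to 574, with 4 of 5 higher, or 3 with the actin covariate or median scaling and 1 without the third arrays. Oral epithelium markers went from 578 to 649 up to 1532 to 1664, with 2 of 6 higher and Krt5 and Krt14 under the filter. Krt6a made up most of that rise, with a mean of 99.2 at GD12 and 862.4 at GD14, and Krt8 was the other gene called. Of the rest, Krt18 and Epcam had positive differences that did not pass. Cdh1 averaged 170.4 and 170.6, and Trp63 117.4 and 101.0.

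Facial mesenchyme markers had probe sets for 12 of 13 genes, all above the filter, with sums of 6166 to 7306 at GD12 and 5739 to 6621 at GD14. Of these, 0 were higher and 1 lower (Msx1), or 2 lower without the third arrays. Neuron markers summed to 1770 to 3269 and 1342 to 1890, with 1 of 8 lower, or 3 with the actin covariate and 2 after quantile normalization or without the third arrays. Red cell markers summed to 20130 to 26500 and 10470 to 13930, with 3 of 5 lower, the globin genes Hba-x, Hbb-y and Hbb-bh1. The other red cell markers did not fall. Hba-a1 averaged 7538 at GD12 and 8043 at GD14 (log2 difference 0.09, limma adjusted p = 0.86). Alas2 averaged 83.1 and 186.6 (1.14, adjusted p = 0.0592, or 0.0287 with the actin covariate). Endothelium markers summed to 473 to 513 and 468 to 528, and 0 of 5 passed. Of these, 0 had an unadjusted limma p under 0.05, against 1284 of all 6861 genes tested. With the replicate number as a block, 5 more markers passed: Alx4 (-0.67, limma adjusted p = 0.0369) and Dlx1 (-0.98, 0.0471) of facial mesenchyme, Stmn2 (-0.72, 0.0319) of neurons, Epcam (0.71, 0.0391) of epithelium and Alas2 (1.14, 0.0123) of red cells. The part of these cell types in the values of Ihh and the matrix genes was not tested.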

How the data were processed

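Expression was measured in 9 samples, 3 per gestation day, grouped by sample title. The deposited values are intensities per probe set on a linear scale, which the authors had scaled: after trimming 2% at each end, every array had a mean of 150.1. The array software and summary method are not given in the sources used here. Of 12488 probe sets, 66 were controls, 10833 had 1 symbol, 396 several and 1193 none, and 10817 of the single-symbol probe sets were found by gene ID in the GRCm38.p6 table, used for names and promoter windows.

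Intensities were taken to log2 after adding 3, and probe sets with a mean at or under the 25th percentile were left out. All 9 arrays entered 1 fit of 3 day means in limma 3.58.1 (R 4.3.3), with moderated statistics on 6 residual and 2.85 prior degrees of freedom, tested on simulated data, and Benjamini-Hochberg adjustment over 9316 probe sets. Python 3.11.15, numpy 2.4.6, pandas 2.3.3 and matplotlib 3.10.9 did the rest. Alternatives were 2 other normalizations, added values of 1 and 11, filters, variance models, array weights, the actin ratio as covariate, a replicate block, the compared days alone and single arrays left out. Leaving out the third array of each day was chosen after seeing the data.

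Replicate numbers come from the titles. Deviations from day means correlated at 0.189 to 0.42 in the 9 pairs with the same number and at -0.287 to -0.0169 in the 18 others, so the numbers pair the arrays. The replicate block moved the calls from GD12 to GD14 from 401 to 621.

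The genes and lists were chosen with earlier results of these data known. Named from each list were up to 4 called genes of smallest adjusted p from GD12 to GD14, or the 2 brightest where none was called. The 5 genes nearest to Ihh, and Col2a1, Ptch1 and Gli1, were named by rule. Sox6, Ccn2, Wnt5a, Bpnt2, Has1, the collagen IX chains and Col10a1 were named after their values were seen.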

Additional observations from a re-analysis of the deposited data

How the results depend on the processing

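The rise of Ihh from GD12 to GD14 was called in each of the 20 alternatives that tested it, with log2 differences from 0.98 to 1.30 and adjusted p from 0.00249 to 0.0334. With the filter at the median intensity it was not tested, and 0 genes of the group were then called. From GD12 to GD13, 1 gene of the group (Ihh) was called with array weights, and 0 to 1 when single arrays were left out. From GD12 to GD14 this range was 1 to 2, the second being Matn1. Of the 9 fits with a single array left out, Matn1 was tested in 7 and Hapln1 in 4. The replicate block, for which array numbers pair the days, called 621 probe sets from GD12 to GD14, and 387 of the 401 called without it were among them. The block changed no call of the genes studied. From GD12 to GD14, beside Sox6 and Ccn2, it changed none of the named cartilage and growth plate list genes or of the 5 genes nearest to Ihh. From GD12 to GD13 it called 1 of the 7 tested other cartilage matrix proteins higher, where the main fit called 0.

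Counts over all probe sets moved more. From GD12 to GD13 (60 called) they were 35 with no filter, 94 with the filter at the median, 115 with a variance trend, 201 with array weights, 34 with the compared days alone, 10 without the third arrays, and 17 to 59 with single arrays left out. From GD12 to GD14 (401) they were 617 with array weights, 225 with the compared days alone, and 176 to 391 with single arrays left out, the lowest without the first GD14 array. From GD13 to GD14 (4) they were 2 with quantile normalization, 2 with an added 1, 16 with an added 11, 0 with no filter, 19 with the filter at the median, 26 with a variance trend, 11 with array weights, 2 with the compared days alone, 0 without the third arrays and 0 to 4 with single arrays left out.

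Signs that turned were all of differences that had not passed. Acan from GD12 to GD13 was -0.087 without the third arrays and -0.31 to 0.86 with single arrays left out. From GD13 to GD14, Hapln1 was -0.10 with the actin covariate and -0.22 to 0.55 with single arrays left out, and Matn1 was 0.18 without the third arrays and -0.96 to 0.18 with single arrays left out. Of the 9 fits with a single array left out, Hapln1 passed the filter and was tested in 4, and Matn1 in 7. Over the same step Pth1r was 0.012 with array weights, 0.013 with the actin covariate and -0.16 to 0.19 with single arrays left out, with 0.08 without the third GD13 array. From GD12 to GD14, Gnas was 0.020 after quantile normalization, and Ptch1 was -0.021 after median scaling and -0.073 to 0.13 with single arrays left out. Gli1 was -0.020 to 0.17 with single arrays left out. The cause of these changes was not tested. Signal near the filter intensity limits Acan, Matn1, Hapln1 and Epyc.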
